A study of Homo sapiens with 12 samples.

Results

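The AP-1 genes FOS, FOSB, FOSL1, FOSL2, JUN, JUNB, JUND and ATF3 were followed in RNA sequencing of CCRF-CEM, an established line of human leukemic T lymphoblasts. These 8 genes were taken by name from the deposited gene tables, which hold 43828 gene places, and all 8 were among the 23546 genes tested. The 4 groups were SLFN11 knockout cells given 100 nM camptothecin (CPT) for 4 h, SLFN11 knockout cells given the solvent DMSO, SLFN11-positive parent cells given the same CPT treatment, and parent cells given DMSO, with 3 libraries each. Neither the way the knockout was made nor whether it is 1 clone is given in the labels. They also do not name separate cultures, so each p-value rests on the scatter among libraries of the same group, and this scatter may be technical alone. The edgeR fit estimated it over all 4 groups together, so parent libraries also bear on p-values between the knockout groups. CPT traps topoisomerase I on DNA and so causes replication stress, and SLFN11 is a putative helicase known to sensitize cancer cells to such drugs. The series title names immediate early gene activation by SLFN11, and these 8 genes belong to that question.

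AP-1 is a dimer of basic leucine zipper (bZIP) proteins. JUN proteins pair with each other or with FOS proteins, whereas FOS proteins need a JUN partner to bind DNA. ATF3 is a stress-induced bZIP factor that pairs with JUN proteins among others. JUN, FOS, FOSB, JUNB and ATF3 are classical immediate early genes, whose transcription starts within minutes of growth factor or stress signals without new protein synthesis. The JNK, p38 and ERK kinases act on them, partly through the factors ATF2, ELK1 and SRF that sit at their promoters. In T lymphocytes AP-1 is best known for driving activation genes such as the cytokine IL2.

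Promoter sequence is shown for the members with the steepest rises after CPT (JUN, ATF3, FOS and FOSB) and for JUNB, which rose without a match to the motifs searched. Each line holds the 250 bases before a gene start in RefSeq on GRCh38.p14, read 5′ to 3′ on the strand of the gene. Capitals mark a match on either strand to TGACNTCA, TGANTCA or TGACGT, where N is any base. TGACGT lies within TGACNTCA when N is G.
JUN (chr1:58784048-58784297, minus strand): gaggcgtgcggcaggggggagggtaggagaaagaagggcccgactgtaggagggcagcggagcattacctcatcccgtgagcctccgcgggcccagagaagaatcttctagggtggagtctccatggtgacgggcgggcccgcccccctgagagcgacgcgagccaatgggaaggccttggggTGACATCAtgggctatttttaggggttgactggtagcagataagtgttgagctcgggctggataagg
ATF3 (chr1:212565157-212565406, plus strand): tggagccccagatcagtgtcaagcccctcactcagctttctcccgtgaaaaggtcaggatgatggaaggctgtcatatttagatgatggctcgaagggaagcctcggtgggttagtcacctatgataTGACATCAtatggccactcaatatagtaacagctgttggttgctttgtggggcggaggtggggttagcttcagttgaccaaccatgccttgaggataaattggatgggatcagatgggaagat
FOS (chr14:75278578-75278827, plus strand): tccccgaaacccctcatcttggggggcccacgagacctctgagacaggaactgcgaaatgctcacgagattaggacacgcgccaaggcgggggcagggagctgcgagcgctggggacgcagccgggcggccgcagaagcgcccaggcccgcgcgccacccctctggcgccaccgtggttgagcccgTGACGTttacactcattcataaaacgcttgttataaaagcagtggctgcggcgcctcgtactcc
FOSB (chr19:45467746-45467995, plus strand): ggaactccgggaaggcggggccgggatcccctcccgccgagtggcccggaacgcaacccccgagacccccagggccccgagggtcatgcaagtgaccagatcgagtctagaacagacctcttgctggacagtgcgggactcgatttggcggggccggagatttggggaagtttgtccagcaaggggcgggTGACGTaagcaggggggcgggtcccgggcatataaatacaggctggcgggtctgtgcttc
JUNB (chr19:12791236-12791485, plus strand): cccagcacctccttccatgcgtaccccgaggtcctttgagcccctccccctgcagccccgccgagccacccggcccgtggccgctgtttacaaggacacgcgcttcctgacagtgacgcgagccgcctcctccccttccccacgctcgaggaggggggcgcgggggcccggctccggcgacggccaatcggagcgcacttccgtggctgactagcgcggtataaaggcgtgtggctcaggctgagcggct
The letters TGACATCA stood at -67 to -60 in JUN and at -123 to -116 in ATF3, where -1 is the last base before the start. As background, this element of the JUN promoter is known to bind dimers of JUN and ATF2. FOS held TGACGT at -64 to -59, FOSB at -60 to -55 and FOSL2 at -66 to -61. JUND held the palindrome TGACGTCA at -200 to -193 and, on the other strand, TGACGT at -87 to -82. RefSeq windows were found for 7 of the 8 members and numbered 8, because ATF3 has 2 starts. Of these windows, 6 of 8 held at least 1 of the motifs, against 17.8% of 35116 RefSeq windows of the same length. TGACNTCA was in 3 member windows (6.87% of all windows), TGACGT in 4 (7.1%) and TGANTCA in 0 (6.57%). The second ATF3 window and the JUNB window held none. The ATF3 window printed above is the first of its 2, and which start gave the RNA was not tested. A match describes letters only, and binding was not measured.

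Exon reads numbered 42439957 to 63606344 per library, except 135592046 in parent DMSO replicate 1. This library stood apart from the other parent DMSO libraries: chi-square divided by its degrees of freedom was 192.8 and 151.6 against them, compared with at most 18.1 for any other pair of replicates, and 26.3% of its reads lay in introns, against 28.6% to 33.6% elsewhere. Its sample title also ends in a number below those of all other libraries, and no meaning was assumed for that number. Values without this library are given where they matter. SLFN11 RNA itself was still present, at 89.8 ± 1.72 CPM in CPT-treated and 86.9 ± 1.58 CPM in DMSO-treated knockout cells, against 120.2 ± 2.38 CPM and 112.3 ± 4.93 CPM in the matching parent cells (SD, n = 3), a log2 difference under DMSO of -0.37 (edgeR adjusted p = 0.000133). CPM stands for exon reads scaled to a common library total. SLFN11 intron reads were higher in the knockout under DMSO, by 0.58 on the log2 scale (edgeR adjusted p = 9.43e-07). Knockout DMSO libraries had 1.83 to 1.97 exon reads of SLFN11 per intron read, against 3.37 to 4.30 in parent DMSO libraries. The cause was not tested. Whole-gene counts do not show a small deletion, so they check the knockout label only in part. The 12 T lymphoblast markers summed to 1693 to 1780 CPM in knockout CPT, 2162 to 2167 CPM in knockout DMSO, 1333 to 1364 CPM in parent CPT and 1855 to 2121 CPM in parent DMSO libraries. None was at 0 in any group, 6 of the 12 fell with CPT in the knockout (9.28% of all genes) and 10 in the parent (17.1%), and their part in the results was not tested. Summed myeloid and erythroid markers stayed at or below 1.06 CPM. Epithelial and fibroblast markers summed to 7.92 to 9.34 CPM in knockout and 1.94 to 3.24 CPM in parent libraries, with COL1A2 at 0 in all groups and EPCAM 5.05-fold higher in the knockout under DMSO (edgeR adjusted p = 5.54e-08). B cell markers summed to 39.4 to 45.5 CPM in knockout and 26.2 to 35.4 CPM in parent libraries. The part of these markers in the differences between genotypes was not tested. In bulk RNA, fewer cells that express a gene and less RNA per cell cannot be told apart.

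The JUN family carried the largest part of AP-1 RNA. JUN, the founding subunit and a target of JNK, lies on hg19 chr1:59246464-59249784 as a gene without introns. Its level was 66.4, 66.9 and 65.5 CPM in knockout CPT libraries and 59.2, 56.9 and 58.0 CPM in knockout DMSO libraries. In the parent it was 663, 670.2 and 631 CPM with CPT and 48.5, 43.9 and 42.3 CPM with DMSO. The parent CPT libraries stood about an order of magnitude above all others, while the groups of knockout libraries were close to each other without overlapping. With CPT, JUN rose by 0.19 ± 0.06 on the log2 scale in the knockout, which is 1.14-fold (SE; edgeR adjusted p = 0.0414). It rose by 3.87 ± 0.07 in the parent, which is 14.6-fold (edgeR adjusted p = 6.8e-16).

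JUNB, a JUN paralog that is a weaker activator and often opposes JUN, is also a gene without introns, on hg19 chr19:12902309-12904123. It had 32.0, 32.5 and 29.4 CPM in knockout CPT libraries and 22.01, 23.6 and 22.3 CPM in knockout DMSO libraries. Parent libraries had 111, 111 and 103 CPM with CPT and 23.9, 21.3 and 22.7 CPM with DMSO. Both genotypes thus started from overlapping levels, and both rose with CPT, the parent further. The log2 change was 0.47 ± 0.07 in the knockout (edgeR adjusted p = 0.000114) and 2.26 ± 0.07 in the parent (adjusted p = 6.18e-13). JUNB lies inside the span of HOOK2, a gene of a microtubule-linking protein, and the files give JUNB no stretch of its own. HOOK2 exon reads moved too, by 0.50 in the knockout and 1.60 in the parent (edgeR adjusted p = 0.000952 and 9.59e-10), but its intron reads gave 0.06 and 0.21 (adjusted p = 0.749 and 0.133). The sharing of reads between both genes was not tested.

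JUND, the JUN paralog that most resting cells express steadily, lies on hg19 chr19:18390562-18392431 and has no intron. Its level was 58.8, 60.9 and 56.8 CPM in knockout CPT, 44.4, 45.9 and 48.0 CPM in knockout DMSO, 179, 197 and 172 CPM in parent CPT and 38.8, 34.3 and 38.3 CPM in parent DMSO libraries. No pair of groups overlapped. It rose 1.28-fold in the knockout (log2 change 0.35 ± 0.07, edgeR adjusted p = 0.00167) and 4.92-fold in the parent (log2 change 2.30 ± 0.07, adjusted p = 6.19e-13).

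ATF3 lies on hg19 chr1:212738675-212794118, with 4003 bases of exon and 51441 bases of intron. It had 14.5, 15.3 and 14.1 CPM in knockout CPT libraries and 12.99, 12.8 and 12.3 CPM in knockout DMSO libraries. In the parent it had 112, 117 and 111 CPM with CPT and 11.4, 10.8 and 11.1 CPM with DMSO. All 3 parent CPT libraries lay far above the rest. The rise was 1.15-fold in the knockout (log2 change 0.20 ± 0.06, edgeR adjusted p = 0.0383), against 10.2-fold in the parent (log2 change 3.35 ± 0.07, adjusted p = 1.9e-15).

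**Figure D1:**
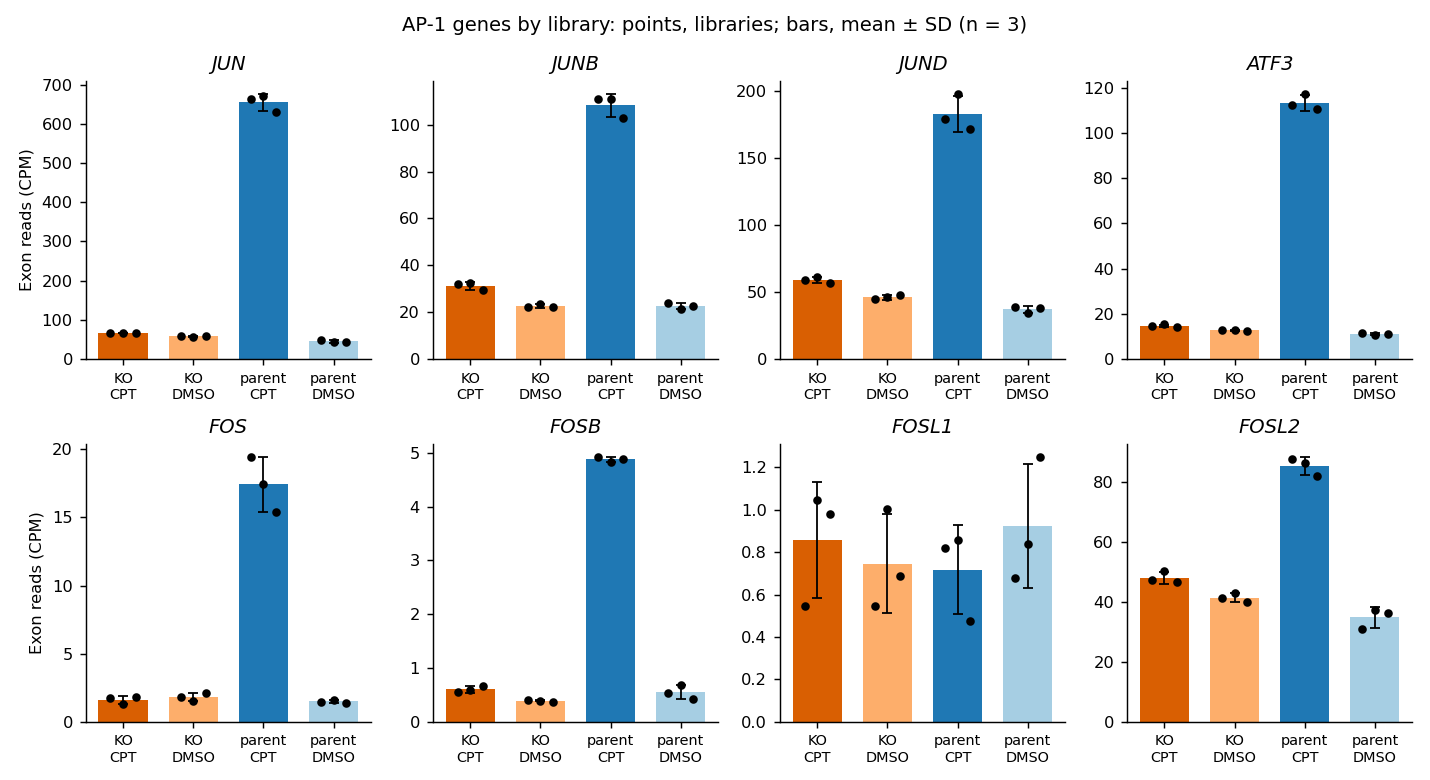
Exon reads in CPM (vertical axes, linear, a scale per gene) of the 8 AP-1 genes in knockout CPT, knockout DMSO, parent CPT and parent DMSO cells; points are libraries and bars are means ± SD (n = 3). For every gene except FOSL1 the 3 parent CPT libraries lie above all 9 others.

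FOS and FOSB, the inducible FOS proteins with a transactivation domain, were much scarcer. FOS (hg19 chr14:75745476-75748932) had 1.74, 1.28 and 1.84 CPM in knockout CPT libraries and 1.79, 1.52 and 2.13 CPM in knockout DMSO libraries. It had 19.4, 17.5 and 15.4 CPM in parent CPT libraries and 1.45, 1.62 and 1.40 CPM in parent DMSO libraries. The knockout libraries overlapped between treatments, with a log2 difference of -0.17 ± 0.17 (edgeR adjusted p = 0.583). FOS rose 11.7-fold in the parent (log2 change 3.55 ± 0.16, adjusted p = 6.23e-11).

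FOSB (hg19 chr19:45971252-45978436) had 0.545, 0.591 and 0.669 CPM in knockout CPT libraries, which is 25 to 35 reads, and 0.408, 0.394 and 0.376 CPM in knockout DMSO libraries. It had 4.92, 4.83 and 4.89 CPM in parent CPT libraries and 0.527, 0.688 and 0.431 CPM in parent DMSO libraries. The knockout libraries did not overlap between treatments, but their log2 difference of 0.61 ± 0.23 missed the threshold (edgeR adjusted p = 0.0872). FOSB rose 8.87-fold in the parent (log2 change 3.15 ± 0.20, adjusted p = 3.01e-09). FOSB lies inside the span of the DNA repair gene ERCC1 and has no stretch of its own in the files. ERCC1 exon reads differed by 0.00 in the knockout and -0.23 in the parent (edgeR adjusted p = 0.979 and 0.0525), and its intron reads by 0.00 and 0.36 (adjusted p = 0.998 and 0.0189).

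FOSL2 and FOSL1, FOS relatives that lack that domain, went separate ways. FOSL2 (hg19 chr2:28615314-28640178) had 47.2, 50.3 and 46.6 CPM in knockout CPT, 41.22, 43.01 and 40.1 CPM in knockout DMSO, 87.9, 86.3 and 82.1 CPM in parent CPT and 30.9, 37.3 and 36.4 CPM in parent DMSO libraries. No groups overlapped. Its log2 difference in the knockout was 0.21 ± 0.07 (edgeR adjusted p = 0.0521). It rose 2.45-fold in the parent (log2 change 1.29 ± 0.07, adjusted p = 9.24e-10), the smallest rise of the 7 members that rose there. FOSL1 (hg19 chr11:65659519-65668043) stayed at 0.545 to 1.05 CPM in knockout CPT, 0.544 to 1.005 CPM in knockout DMSO, 0.476 to 0.858 CPM in parent CPT and 0.680 to 1.25 CPM in parent DMSO libraries. All 4 groups overlapped. Its log2 differences were 0.21 ± 0.35 in the knockout and -0.33 ± 0.34 in the parent (edgeR adjusted p = 0.757 and 0.505), and at 25 to 80 reads per library only large changes could have been seen.

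Counted over all 8 members, 4 rose with CPT in the knockout (JUN, JUNB, JUND and ATF3), where 7.3% of all genes tested rose, and 6 had no overlap between treatments in the higher direction, as had 18.9% of all genes. The median log2 change of the 8 members was 0.21, against 0.02 over all genes. In the parent 7 members rose, where 16.8% of all genes rose, and the same 7 had no overlap in the higher direction, as had 22.7% of all genes. The median of the members there was 2.72, against 0.01 over all genes. By log2 change, JUN ranked 16, FOS 25, ATF3 31 and FOSB 41 among the 23546 genes in the parent, and FOSL2 ranked 507. The calls of JUN and ATF3 in the knockout were fragile. When 1 library was left out, JUN stayed called only without a parent DMSO library, and ATF3 only without a parent DMSO library or knockout CPT replicate 3 (edgeR adjusted p up to 0.162 and 0.155). JUNB and JUND stayed called in all 12 such fits.

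**Figure D2:**
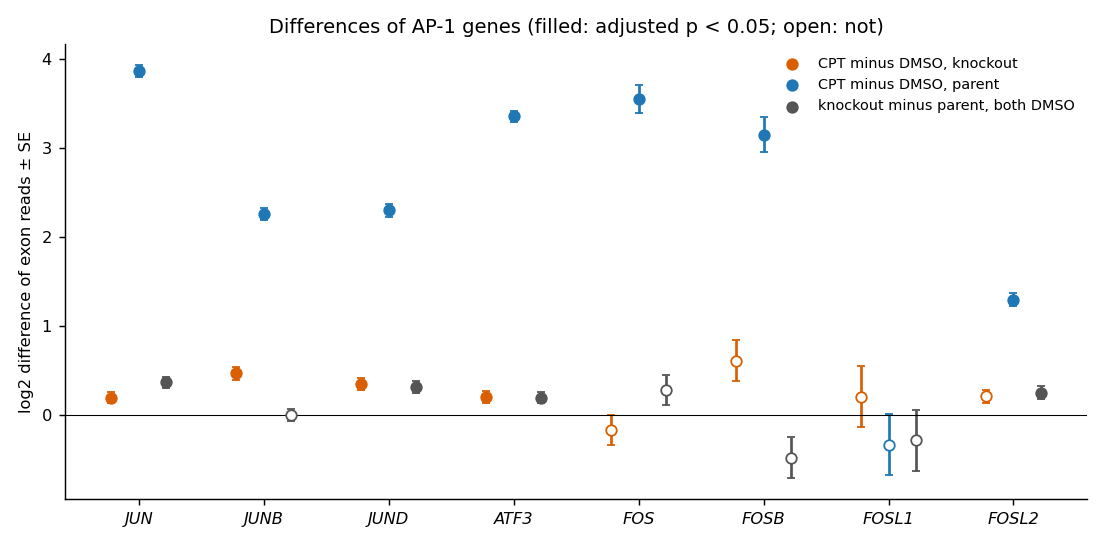
Log2 differences of exon reads ± SE (vertical axis) for the 8 members: CPT minus DMSO in knockout cells, CPT minus DMSO in parent cells, and knockout minus parent under DMSO; filled symbols have an edgeR adjusted p below 0.05. Knockout changes of all 8 run between -0.17 and 0.61, and parent changes of the 7 genes that rose between 1.29 and 3.87.

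The difference between both responses was tested directly, as the log2 change in the knockout minus that in the parent. It was lower for 7 of 8 members, where 4.47% of all genes were lower. It was -3.71 ± 0.23 for FOS (edgeR adjusted p = 1.22e-08) and -3.67 ± 0.09 for JUN (adjusted p = 1.29e-13), which differ by less than their errors, and ATF3 had -3.15 ± 0.09 (adjusted p = 8.63e-13). The difference was -2.54 ± 0.31 for FOSB, -1.95 ± 0.10 for JUND, -1.79 ± 0.10 for JUNB and -1.08 ± 0.10 for FOSL2 (edgeR adjusted p = 4.74e-05, 9.02e-10, 1.83e-09 and 2.54e-06). FOSL1 gave 0.54 ± 0.49 (adjusted p = 0.6). Without parent DMSO replicate 1, the 7 differences ran between -3.73 (JUN) and -0.99 (FOSL2) and all kept their calls.

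Between genotypes under CPT, which uses the same parent CPT libraries, the same 7 members were lower in the knockout, where 14.6% of all genes were lower. All 7 lay below the parent libraries without overlap, as did 24.8% of all genes. The log2 differences, knockout minus parent, were -3.43 for FOS, -3.30 for JUN, -3.02 for FOSB, -2.95 for ATF3, -1.79 for JUNB, -1.63 for JUND and -0.83 for FOSL2, with edgeR adjusted p of at most 1.69e-07. FOSL1 gave 0.26 (adjusted p = 0.637).

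Under DMSO the members that passed the test were higher in the knockout. JUN was 1.29-fold higher in knockout than in parent cells (log2 difference 0.37 ± 0.06, edgeR adjusted p = 0.00045), and JUND 1.24-fold higher (0.31 ± 0.07, adjusted p = 0.00464). FOSL2 (0.25, adjusted p = 0.0257) and ATF3 (0.20, adjusted p = 0.0481) also passed the test, which made 4 higher members, where 8.26% of all genes were higher. Libraries of both genotypes did not overlap for these 4 and, with the knockout lower, for FOSB, where 32.5% of all genes had no overlap in either direction. FOS (0.28), FOSB (-0.48), FOSL1 (-0.28) and JUNB (0.00) did not pass (adjusted p between 0.181 and 0.995). The FOSL2 call ended without any single knockout DMSO library (edgeR adjusted p = 0.0754, 0.121 and 0.0533), and the ATF3 call in 10 of 12 fits with 1 library fewer, the exceptions being those without parent DMSO replicate 1 and without knockout CPT replicate 3 (highest adjusted p 0.162). All 5 comparisons share libraries, so their values are not independent of each other.

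Per kilobase of exon, levels of different members can be set side by side, but only roughly. The exon lengths are those of the deposited counts, and which transcripts were expressed was not tested. A transcript shorter than this length makes a member look lower. JUNB and FOSB also have no stretch of their own. The same limits hold for the family sums and shares below. Knockout CPT cells had JUND at 31.5 ± 1.10, JUN at 19.96 ± 0.22, JUNB at 17.2 ± 0.92, FOSL2 at 6.71 ± 0.27 and ATF3 at 3.65 ± 0.16 CPM per kb (SD, n = 3). FOS, FOSL1 and FOSB followed at 0.501 ± 0.0916, 0.455 ± 0.145 and 0.108 ± 0.0113 CPM per kb. The first 5 places were the same in knockout DMSO and parent DMSO cells. Parent CPT cells had another order: JUN led with 197 ± 6.26, ahead of JUND with 97.7 ± 7.04, JUNB with 59.6 ± 2.63, ATF3 with 28.3 ± 0.85 and FOSL2 with 11.9 ± 0.42 CPM per kb. FOS stood at 5.38 ± 0.62, FOSB at 0.879 ± 0.00836 and FOSL1 at 0.381 ± 0.111 CPM per kb there. FOS and FOSL1 were neighbours whose libraries overlapped in the other 3 groups, and so were JUN and JUNB in parent DMSO cells, at 13.5 ± 0.98 and 12.5 ± 0.72 CPM per kb.

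The makeup of the JUN family changed with its total. Summed over JUN, JUNB and JUND, the level was 68.7 ± 2.21 in knockout CPT, 54.6 ± 0.87 in knockout DMSO, 354.4 ± 15.1 in parent CPT and 45.8 ± 2.61 CPM per kb in parent DMSO cells. JUN made up 29.1% ± 0.62 of it in knockout CPT and 32.0% ± 1.03 in knockout DMSO cells, against 55.6% ± 0.75 in parent CPT and 29.5% ± 1.45 in parent DMSO cells. Its share was higher by 26.1 percentage points with CPT in the parent and changed by -2.92 percentage points in the knockout. Neither pair of groups overlapped (exact two-sided permutation p = 0.1 for each, the smallest that 3 against 3 libraries allow). The FOS family summed to 7.78 ± 0.28, 6.82 ± 0.23, 18.6 ± 1.13 and 5.93 ± 0.61 CPM per kb in knockout CPT, knockout DMSO, parent CPT and parent DMSO cells. FOSL2 was most of it everywhere, with 86.3%, 84.95%, 64.3% and 82.3% in the same 4 groups. FOS held 6.47% ± 1.36 in knockout CPT and 8.24% ± 1.61 in knockout DMSO cells (exact permutation p = 0.3), against 28.9% ± 1.61 in parent CPT and 7.82% ± 0.85 in parent DMSO cells (exact permutation p = 0.1).

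**Figure D3:**
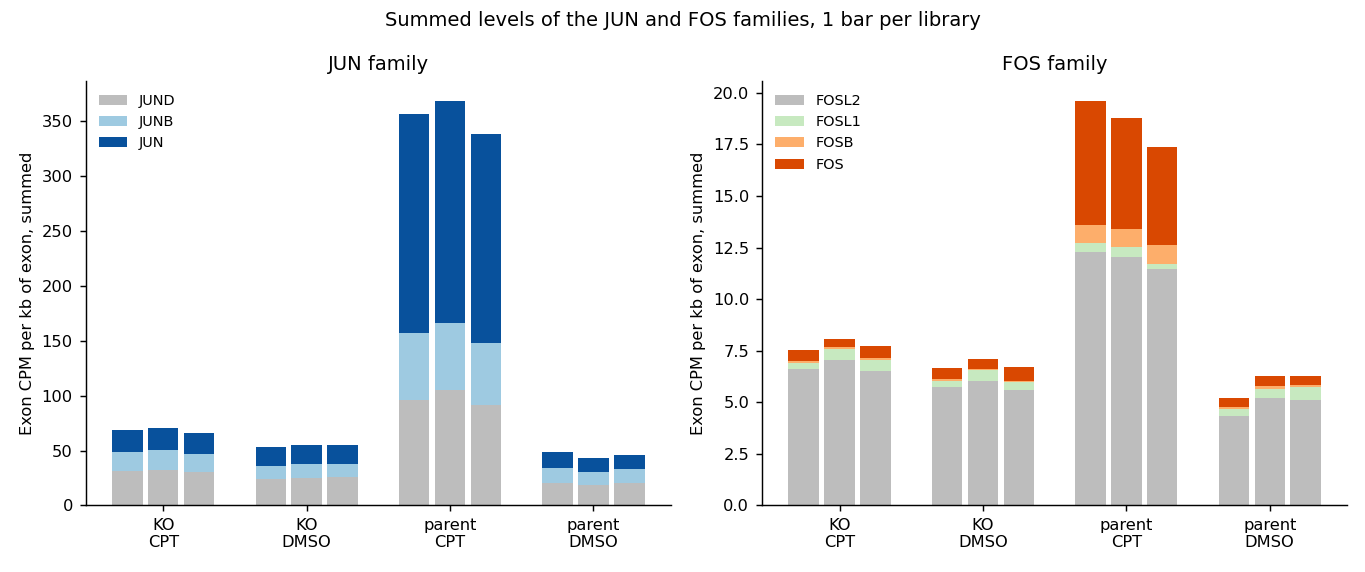
Exon CPM per kb of exon (vertical axes, linear), stacked by gene, for the JUN family on the left and the FOS family on the right; each bar is 1 library. JUN is the largest segment of the JUN family in the 3 parent CPT libraries alone, and FOSL2 is the largest segment of the FOS family in all 12.

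Intron reads, which come mostly from unspliced RNA, were available for the 5 members with introns. In the knockout, edgeR called 0 of the 5 on intron reads, where 16.9% of the 19908 genes tested on intron reads were called in either direction; 0 had an unadjusted p below 0.05, and DESeq2 called 0. ATF3 intron reads there gave a log2 difference of 0.01 ± 0.14 (edgeR adjusted p = 0.986), from 343 to 466 reads per CPT library and 278 to 414 per DMSO library. In the parent 4 of these 5 rose with CPT, where 12.1% of all genes rose on intron reads. For FOS the deposited counts assign 219 bases to intron and 3238 to exon. FOS had 4 to 11 intron reads in knockout CPT and 6 to 9 in knockout DMSO libraries. It had 113 to 159 in parent CPT and 6 to 9 in parent DMSO libraries. Nearly all of these reads were also counted as exon reads. Parent CPT replicate 1, for example, had 1232 exon, 159 intron and 1235 total reads of FOS. Intron values of FOS are thus not separate from its exon values. Its intron log2 change in the parent was 4.33 ± 0.40 (edgeR adjusted p = 2.89e-08). FOSB intron reads rose by 2.73 ± 0.34 (adjusted p = 1.96e-06), ATF3 by 2.32 ± 0.13 (adjusted p = 9.04e-11) and FOSL2 by 0.82 ± 0.15 (adjusted p = 0.000377). FOSL1 intron reads gave 0.47 ± 0.36 (adjusted p = 0.382).

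The difference of responses on intron reads was lower for 3 of 5 members, where 2.81% of all genes were lower: it was -4.44 for FOS, -2.32 for ATF3 and -2.11 for FOSB (edgeR adjusted p = 0.000227, 2.47e-07 and 0.0216). The FOSB call ended in 5 of 12 fits with 1 library fewer, namely without parent CPT replicate 1 or 2, knockout DMSO replicate 1 or 3, or knockout CPT replicate 2 (adjusted p up to 0.126). Under CPT the same 3 were lower in knockout than in parent cells (13.1% of all genes). Of these 3, FOS has intron reads that are not separate from its exon reads, and FOSB has no stretch apart from ERCC1. ERCC1 intron reads gave -0.36 in the difference and -0.61 under CPT (edgeR adjusted p = 0.217 and 0.000296). Their part in the FOSB values was not tested. Under DMSO edgeR called 0 of 5 (14.6% of all genes in either direction), with 0 at an unadjusted p below 0.05 and 0 by DESeq2.

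**Figure D4:**
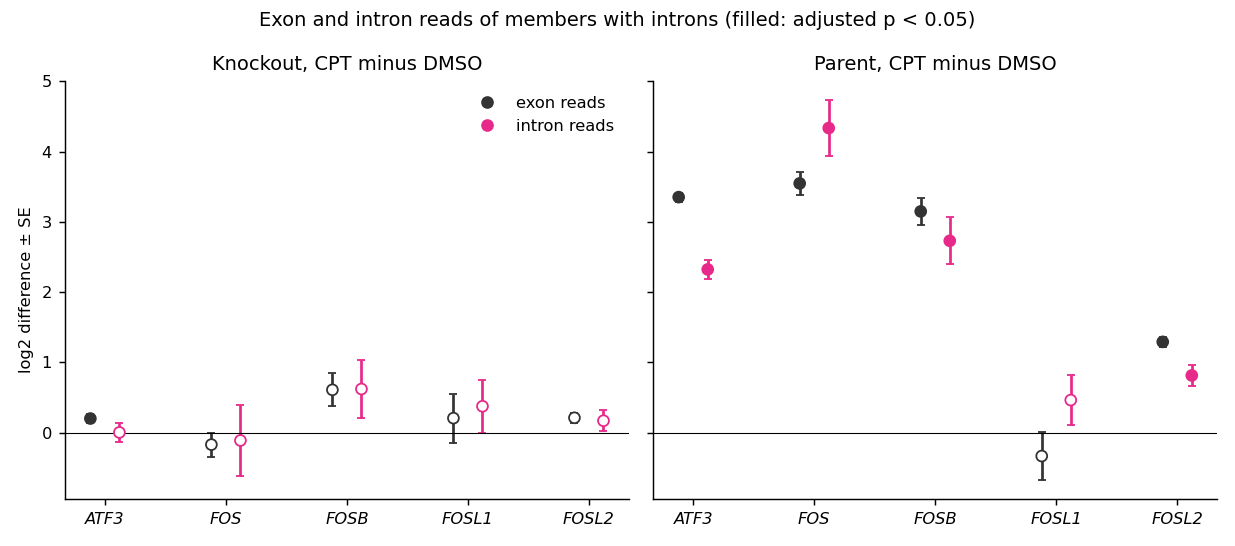
Log2 differences, CPT minus DMSO, ± SE (vertical axis) of exon and intron reads for the 5 members with introns, in knockout cells on the left and parent cells on the right; filled symbols have an edgeR adjusted p below 0.05. In the knockout no intron value is filled, and in the parent ATF3 stands at 3.35 on exon and 2.32 on intron reads.

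The balance of exon and intron reads was also followed within libraries. ATF3 had 1.84 to 1.97 exon reads per intron read in knockout CPT libraries and 1.61 to 2.12 in knockout DMSO libraries. In the parent the ratio was 3.33 to 3.48 with CPT and 1.58 to 2.05 with DMSO. Only the parent CPT libraries stood apart. For FOSL2 the ratio was 6.36 to 6.86 in parent CPT and 3.82 to 6.68 in parent DMSO libraries, which overlap because parent DMSO replicate 1 lies at 6.68. For FOSL1 the ratio was 0.743 to 1.24 in parent CPT and 1.47 to 1.90 in parent DMSO libraries, at 26 to 80 exon reads per library. Knockout CPT libraries alone ran from 0.658 to 2.35, which spans both parent ranges, so no direction is read from them. These ratios are a description, with no test. Exon and intron lengths differ between genes, so ratios of different genes cannot be set side by side.

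Other bZIP proteins were examined as a list of 25 genes, of which 22 were tested. Not all of them are established partners of JUN, FOS or ATF3, and pairing was not measured. In the knockout 2 rose and 4 fell (7.3% and 9.28% of all genes), with a median of 0.08 against 0.02 over all genes. BACH2, a repressor of lymphoid cells, fell by 0.60, ATF6 by 0.49 and ATF2, the JUN partner at the JUN promoter, by 0.43 there (edgeR adjusted p = 0.00069, 0.000524 and 0.000123). In the parent 10 rose and 3 fell (16.8% and 17.1% of all genes), with a median of 0.13 against 0.01 over all genes. The small MAF protein MAFF rose by 1.79 ± 0.23 and DDIT3, the stress factor also called CHOP, by 1.35 ± 0.07 (edgeR adjusted p = 1.39e-05 and 4.04e-10). ATF2 also fell in the parent, by 0.52 (edgeR adjusted p = 6.37e-06). The difference of responses was lower for 7 of the 22, where 4.47% of all genes were lower. Among the 7 were DDIT3, MAFF, CEBPB, CREM, CEBPG and ATF5. DDIT3 had 13.6 ± 0.35 CPM in knockout CPT, 17.9 ± 0.76 in knockout DMSO, 47.5 ± 1.02 in parent CPT and 18.6 ± 1.39 CPM in parent DMSO cells, so that it fell in the knockout and rose in the parent.

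The kinases upstream were examined as RNA as well. Of 20 tested genes of the JNK and p38 route, 1 rose and 4 fell in the knockout (7.3% and 9.28% of all genes), and 5 rose and 7 fell in the parent (16.8% and 17.1%). The list medians were -0.02 in the knockout and -0.09 in the parent. MAP2K6, a kinase that activates p38, fell by 0.50 in the knockout and 0.97 in the parent (edgeR adjusted p = 0.00176 and 9.11e-07). The p38 kinase MAPK14 fell by 0.37 and 0.55 in knockout and parent (edgeR adjusted p = 0.000722 and 5.42e-06). Its substrate MAPKAPK3 fell in both as well, by 0.29 in the knockout and 0.61 in the parent (edgeR adjusted p = 0.00381 and 1.26e-06). The JNK scaffold MAPK8IP1 rose by 0.78 in the knockout (edgeR adjusted p = 0.015). Of the JNK genes, MAPK10, at a mean of 0.332 CPM, gave -0.44 in the knockout (edgeR adjusted p = 0.56) and fell by 1.46 in the parent (adjusted p = 0.0241). The more abundant JNK genes did not pass in either genotype: MAPK8 gave -0.06 in the knockout and -0.04 in the parent, and MAPK9 0.04 and -0.13 (edgeR adjusted p between 0.207 and 0.789). Responses differed between genotypes for 2 genes of this list, MAP2K7 (-0.35) and MAPKAPK3 (0.31), where 4.47% of all genes were lower and 1.84% higher.

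In the ERK and SRF route, 4 of 16 genes fell in the knockout (9.28% of all genes), and 3 rose and 6 fell in the parent, where 16.8% of all genes rose and 17.1% fell. The list medians were -0.07 in the knockout and -0.09 in the parent. MAP2K1, the kinase above ERK, fell by 0.44 in the knockout and 0.39 in the parent (edgeR adjusted p = 9.54e-05 and 0.000113). SRF, the factor bound at the FOS promoter, rose by 0.37 in the parent (edgeR adjusted p = 9.18e-05). The difference of responses was called for 0 of 16 by edgeR, where 4.47% of all genes were lower and 1.84% higher. Of the 16, 4 had an unadjusted p below 0.05 and DESeq2 called 1. Of 7 genes that degrade or stabilise JUN and FOS proteins, 2 fell in the knockout (9.28% of all genes; median -0.13) and 4 in the parent (17.1%; median -0.19). RFWD2, the ubiquitin ligase COP1 that targets JUN, was lowest by log2 change in both: it fell by 0.62 in the knockout and 0.95 in the parent (edgeR adjusted p = 1.96e-06 and 5.09e-09), and its responses differed by 0.33 (adjusted p = 0.0301). FBXW7, another ligase for JUN, fell by 0.42 in the parent (edgeR adjusted p = 0.00117).

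Of 24 known AP-1 target genes, 14 were tested; IL2 and the collagenase gene MMP1 were not among them. The urokinase gene PLAU had 2.38 ± 0.46 CPM in knockout CPT, 2.07 ± 0.13 in knockout DMSO, 10.4 ± 1.01 in parent CPT and 1.19 ± 0.16 CPM in parent DMSO cells. DUSP1, a phosphatase that switches off p38 and JNK, had 7.01 ± 0.12, 5.69 ± 0.64, 27.9 ± 1.48 and 4.34 ± 0.52 CPM in the same 4 groups. In the knockout 3 targets rose and 3 fell (7.3% and 9.28% of all genes), with a median of 0.10 against 0.02 over all genes. The chemokine gene IL8, counted among those that rose, had 0.546 ± 0.0556 CPM with CPT against 0.122 ± 0.109 CPM with DMSO there, and it reached a mean of 1 CPM over all libraries through the parent CPT group alone. In the parent 8 rose and 3 fell (16.8% and 17.1% of all genes), with a median of 0.52 against 0.01 over all genes. PLAU rose by 3.14 and DUSP1 by 2.69 in the parent (edgeR adjusted p = 4.04e-10 and 1.22e-11). IL8 rose by 3.75 in the parent (adjusted p = 2.48e-08), to 8.90 ± 0.29 CPM, against 0.652 ± 0.0717 CPM with DMSO. The responses of IL8 differed by -1.59, which missed the threshold (edgeR adjusted p = 0.126). The adhesion receptor CD44 fell in both genotypes, by 0.49 in the knockout and 0.74 in the parent (edgeR adjusted p = 0.00246 and 2.12e-05). Responses differed for 4 targets, all lower in the knockout, where 4.47% of all genes were lower: PLAU (-2.94), DUSP1 (-2.39), the activation marker CD69 (-2.06) and TNF (-1.51).

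**Figure D5:**
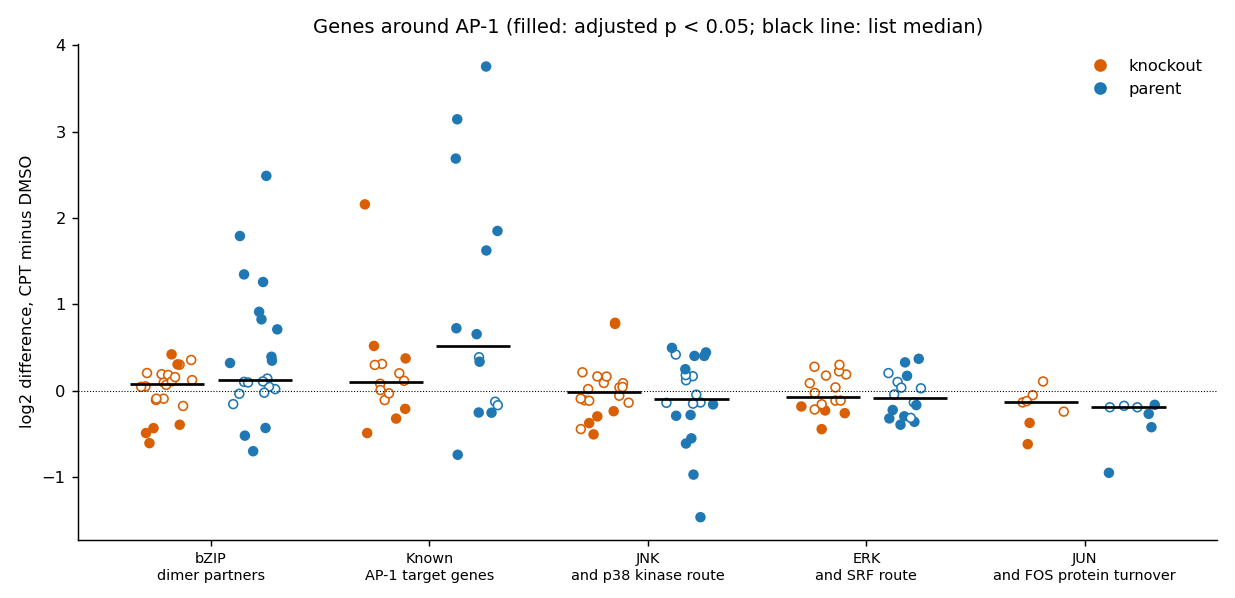
Log2 differences, CPT minus DMSO (vertical axis), of the tested genes of 5 lists around AP-1, in knockout cells (left in each pair) and parent cells (right); each point is a gene, filled with an edgeR adjusted p below 0.05, and black lines are list medians. The median of AP-1 targets is 0.10 in the knockout and 0.52 in the parent, and the other list medians stay between -0.19 and 0.13.

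Among 16150 genes that averaged 1 CPM or more, those whose centred log2 CPM profile over the 12 libraries came closest to JUN were EGR1, RGS16, DUSP10 and RAB30, with a root mean square difference of 0.20, 0.26, 0.37 and 0.43. EGR1 is a zinc finger immediate early factor, RGS16 a regulator of G protein signals, DUSP10 a phosphatase of JNK and p38, and RAB30 a small GTPase. EGR1 was also nearest to ATF3 (0.26) and to FOS (0.32). DUSP10 and RGS16 were among the 4 nearest to all 3 genes. The log2 changes of EGR1 were 0.50 in the knockout and 3.82 in the parent, against 0.19 and 3.87 for JUN.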

How the data were processed

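Total RNA of 12 CCRF-CEM libraries in 4 groups was sequenced on 1 HiSeq4000 paired-end run, per the labels' protocols. The deposited tables give whole-number counts of reads over each gene, its exons and its introns, per the file headers. The submitters' processing notes list STAR 2.5.4a, Picard 2.9.2, Trimmomatic 0.39, Trim Galore 0.6.2 and hg19 with no role or order. The table names mark duplicates as removed, which can compress counts of abundant short transcripts such as JUN. Which tool counted, with which annotation and strand setting, is not given in the sources used here, and reads of overlapping genes cannot be told apart. Deposited TPM values were not used.

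Genes absent from a table entered with 0 reads, 182 names at more than 1 place were kept apart, and up to 32 Y copies of pseudoautosomal genes per table were left out. The labels state no test. Exon counts of all 12 libraries were fitted with edgeR 4.0.16 in R 4.3.3 (filterByExpr, TMM, robust quasi-likelihood, a mean per group), and intron counts in a separate fit of the same kind. A call needs p below 0.05 after Benjamini-Hochberg adjustment over all genes tested. The SE is the log2 change before shrinkage divided by the square root of F, so it restates the test. CPM use TMM-scaled exon totals; values per kb divide by exon length. Family shares were compared with exact permutation tests. The fit was also run on simulated data. Every gene had the same spread there, and the changes put in were larger than those of JUN and ATF3 in the knockout. That run does not bear on these calls or on a library that stands apart. The alternatives tried include DESeq2 1.42.0. Same-numbered libraries did not deviate together (correlations -0.0323 to 0.0326), so the numbers were not treated as pairs.

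The members, lists and tests were chosen with earlier results of these data known. Besides the members and SLFN11, the text names per list and treatment comparison up to 3 called genes with the largest log2 change among genes averaging 1 CPM or more, and the 4 genes nearest in profile to JUN, FOS and ATF3. ATF2 in the parent, MAPK8, MAPK9, MAPK10, MAPKAPK3, EPCAM, COL1A2, HOOK2, ERCC1, IL2, MMP1 and further genes whose responses differed were named after their values were seen. Some genes that the rule names are not reported here.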

Additional observations from a re-analysis of the deposited data

Results flagged for a closer look

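The camptothecin response differed between knockout and parent cells for 7 of the 8 members, by a direct test of the difference (edgeR quasi-likelihood, Benjamini-Hochberg adjusted over all genes tested). The log2 response of the knockout minus that of the parent was -3.71 for FOS (adjusted p = 1.22e-08), -2.54 for FOSB (adjusted p = 4.74e-05) and -1.08 for FOSL2 (adjusted p = 2.54e-06). It was -3.67 for JUN (adjusted p = 1.29e-13), -1.79 for JUNB (adjusted p = 1.83e-09), -1.95 for JUND (adjusted p = 9.02e-10) and -3.15 for ATF3 (adjusted p = 8.63e-13). The labels name 1 knockout line, so genotype and other differences between that line and the parent cannot be told apart.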

How the results depend on the processing

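The alternatives gave 1207 log2 values of members on exon and intron reads. On exon reads, 718 of them kept their direction and their side of the threshold, 43 lost a call, 9 gained one and 12 changed sign; on intron reads these numbers were 399, 5, 8 and 13. The number of members called in the parent response, the difference of responses and the comparison under CPT stayed at 7 in every fit with 1 library left out. With the replicate block, 3, 7, 7, 7 and 3 members were called in the knockout response, the parent response, their difference, the CPT comparison and the DMSO comparison; the ATF3 call ended in the knockout response (adjusted p = 0.0507) and under DMSO (adjusted p = 0.0626), and the FOSL2 intron value passed in the difference (adjusted p = 0.0432) and under CPT (adjusted p = 0.0389).

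For the knockout response, genes called numbered 5967 with library size alone and 5932 with the compared groups only, against 3902; members called were 2 without a filter on low counts and 2 with total gene reads, against 4. Under DMSO, fitting the compared groups only gave 2104 genes and 2 members, against 3697 and 4. Leaving out 1 library gave 2519 to 6640 genes and 2 to 5 members in the knockout response, 903 to 3503 genes in the difference, and 2385 to 4327 genes, 2 to 4 members and 0 to 1 members on intron reads under DMSO. The highest gene counts came without parent DMSO replicate 1, and the 1 intron call without parent DMSO replicate 3. Without division by exon length, the FOS share changed by 12.1 points with CPT in the parent and by -12.9 points between knockout and parent under CPT, against 21.1 and -22.4. Under DMSO its difference ran between -0.376 and 1.23 points with 1 library left out.

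Sign changes concerned values that missed the threshold. With total gene reads FOSL1 gave 0.082 in the parent and -0.036 under CPT, against -0.33 and 0.26. JUNB under DMSO gave -0.0045 with DESeq2 size factors, -0.0059 with DESeq2, -0.0093 without the filter, -0.0019 with total gene reads and -0.0485 to 0.0433 with 1 library left out. Intron values with 1 library left out ran, in the knockout response, from -0.11 to 0.10 for ATF3 and -0.56 to 0.20 for FOS; under DMSO, from -0.020 to 0.32 for ATF3 and -0.33 to 0.14 for FOSL1; and for FOSL1 from -0.32 to 0.20 in the difference and -0.40 to 0.11 under CPT. The cause was not tested.

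With library size alone the median of all genes was 0.17, 0.12, 0.14 and 0.08 in the knockout response, under CPT, in the parent response and under DMSO, against 0.02, 0.00, 0.01 and -0.01, and 78.6%, 69.3%, 67.2% and 72.7% of calls were higher, against 44.0%, 47.9%, 49.6% and 52.6%. In the difference 46.3% were higher, against 29.2%; DESeq2 called 817 genes higher and 1268 lower there. Members kept their direction with this scale, and FOSB (adjusted p = 0.0265) and FOSL2 (adjusted p = 0.0045) were then called in the knockout. FOSB and JUNB have no unique stretch, so reads unique to a gene could not be used for them or for the family shares. At 18 to 80 exon reads per library for FOSL1, and for FOSB outside the parent CPT libraries, small differences could not be seen.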
